A study of Rattus norvegicus with 6 samples.

Results

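The microRNA-26 (miR-26) family of the rat is represented by rno-miR-26a-5p and rno-miR-26b-5p, which were taken by name from 6 single-colour Agilent rat microRNA arrays and make up 2 of the 758 microRNAs on each array. The samples came from 3 untreated male Sprague-Dawley rats aged 10 weeks, whose arterial blood was drawn at the abdominal aorta and whose venous blood was drawn at the postcava, so that each group holds 3 samples and each rat gave one sample to each group. Plasma was taken from 3 mL of EDTA blood by 2 centrifugations and passed through a 0.22 μm filter that holds back cells and debris. The study asked whether the microRNA profiles of matched arterial and venous plasma are alike.

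A mature microRNA guides the Argonaute complex to messenger RNAs, mainly by pairing of its seed, the bases 2 to 8 from the 5′ end. The miR-26 microRNAs are found in many tissues and are known for restraining the cell cycle and for targeting the histone methyltransferase Ezh2 and the signalling protein Smad1, which links them to growth of smooth muscle and endothelium. Their genes lie in genes of the CTD small phosphatase family, and the phosphatases and the microRNAs are both known to act on the retinoblastoma pathway.

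The mature sequences in the RefSeq tables of the GRCr8 assembly show what the 2 members share. The 4 arms of the 2 hairpins are given 5′ to 3′ with the seed in capitals, because the seed groups the 5p arms and separates the 3p arms.
rno-miR-26a-5p: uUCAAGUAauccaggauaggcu
rno-miR-26b-5p: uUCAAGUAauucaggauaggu
rno-miR-26a-3p: cCUAUUCUugguuacuugcac
rno-miR-26b-3p: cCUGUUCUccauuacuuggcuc

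The seed UCAAGUA is shared by rno-miR-26a-5p and rno-miR-26b-5p and by no other of the 693 mature rat microRNAs in the table, to which 685 of the 758 names on the array could be matched. Counted from the 5′ end of rno-miR-26a-5p, rno-miR-26b-5p carries C11U and C21U, so that 19 of the 21 bases of their common length are identical, and both changes lie outside the seed. The 3p arms differ at 7 positions, of which A4G lies in the seed.

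The hairpins are given with both mature arms in capitals, since the arms were measured by separate probes.
Mir26a hairpin: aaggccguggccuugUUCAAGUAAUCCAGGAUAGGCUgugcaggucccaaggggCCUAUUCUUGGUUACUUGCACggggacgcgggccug
Mir26b hairpin: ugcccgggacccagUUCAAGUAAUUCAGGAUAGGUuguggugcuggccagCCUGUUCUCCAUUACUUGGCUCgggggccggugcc

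On GRCr8 the Mir26a hairpin occupies chr8:127633048-127633137 on the plus strand and lies within the span of Ctdspl. The Mir26b hairpin occupies chr9:83425709-83425793 on the plus strand within the span of Ctdsp1. Both host genes are transcribed from the same strand as the microRNA they contain.

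Each 5p member was read by 2 probes with 8 spots per probe, that is by 16 spots on an array and 96 over the 6 arrays. Feature Extraction called rno-miR-26a-5p and rno-miR-26b-5p detected on all 6 arrays, as it did 126 of the 758 microRNAs. All 96 spots of rno-miR-26a-5p and 95 of the 96 spots of rno-miR-26b-5p were well above background, and none was saturated. The 3p arms behaved otherwise. Neither rno-miR-26a-3p nor rno-miR-26b-3p was detected on any array, none of their 96 spots each was well above background, and their probe means lay between -1.80 and 0.82 for rno-miR-26a-3p and between -0.88 and 2.55 for rno-miR-26b-3p in background-subtracted intensity. Of both hairpins only the 5p arm was detected, and no arterial to venous ratio is given for the 3p arms.

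The background-subtracted intensity of rno-miR-26a-5p, averaged over its spots and probes and not yet normalized between arrays, was in arterial samples 123.0 (rat 1), 227.4 (rat 2) and 120.4 (rat 3). The venous samples of these rats gave 88.0, 292.2 and 63.6. Rat 2 was highest in both kinds of plasma, and the arterial value exceeded the venous one in rats 1 and 3 and was lower in rat 2.

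For rno-miR-26b-5p the same intensities were 25.8, 55.9 and 30.9 in arterial and 16.4, 59.9 and 12.8 in venous plasma. The direction within each rat was that of rno-miR-26a-5p, and the arterial and venous values overlapped for both members.

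The brightness of whole arrays moved the same way. For the 126 microRNAs with detection on each array, the median intensity of arterial samples was 35.4 (rat 1), 41.8 (rat 2) and 30.1 (rat 3), and that of venous samples was 21.8, 52.9 and 17.2. Arterial samples had 159 to 174 detected microRNAs and venous samples 137 to 175. How far array brightness shaped the unnormalized values was not tested. Differences between the plasma types are given after quantile normalization over the 758 microRNAs, which gives the arrays a common distribution of intensities, and on the log2 scale.

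After normalization the log2 intensity of rno-miR-26a-5p was 6.56 (rat 1), 7.71 (rat 2) and 7.39 (rat 3) in arterial samples, with 6.83, 7.71 and 7.24 in the matched venous samples. The group means were 7.22 ± 0.60 (SD, n = 3) and 7.26 ± 0.44 (SD, n = 3), and the groups overlapped almost entirely. Arterial minus venous, rat 1 differed by -0.27 and rat 3 by 0.15, while rat 2 differed by 0 because the microRNA held the same rank on both of its arrays. The mean difference was -0.04 with a standard error of 0.117 (adjusted p = 1 from limma with the rat as a block), an arterial to venous ratio of 0.971.

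The normalized log2 intensity of rno-miR-26b-5p was 4.37, 5.44 and 5.14 in arterial and 4.59, 5.25 and 4.59 in venous plasma. The group means were 4.98 ± 0.55 (SD, n = 3) and 4.81 ± 0.38 (SD, n = 3). The arterial value was lower by 0.23 on the log2 scale in rat 1 and higher in the other rats, with differences of -0.23, 0.20 and 0.54. The mean difference was 0.17 with a standard error of 0.213 (adjusted p = 1 from limma), an arterial to venous ratio of 1.13.

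In the authors' quantile-normalized table, whose intensities include the background, the log2 values of rno-miR-26a-5p were 7.26, 8.12 and 7.70 for arterial and 7.50, 8.21 and 7.58 for venous plasma. Those of rno-miR-26b-5p were 5.96, 6.52 and 6.33 for arterial and 5.90, 6.48 and 6.08 for venous plasma. In both plasma types rat 1 was lowest and rat 2 highest, and the plasma types again overlapped for both members. In this table rno-miR-26b-5p was higher in the arterial sample of all 3 rats, with a mean difference of 0.12 and an adjusted p of 0.890 from limma, whereas rno-miR-26a-5p was lower in rats 1 and 2 and higher in rat 3.

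**Figure D1:**
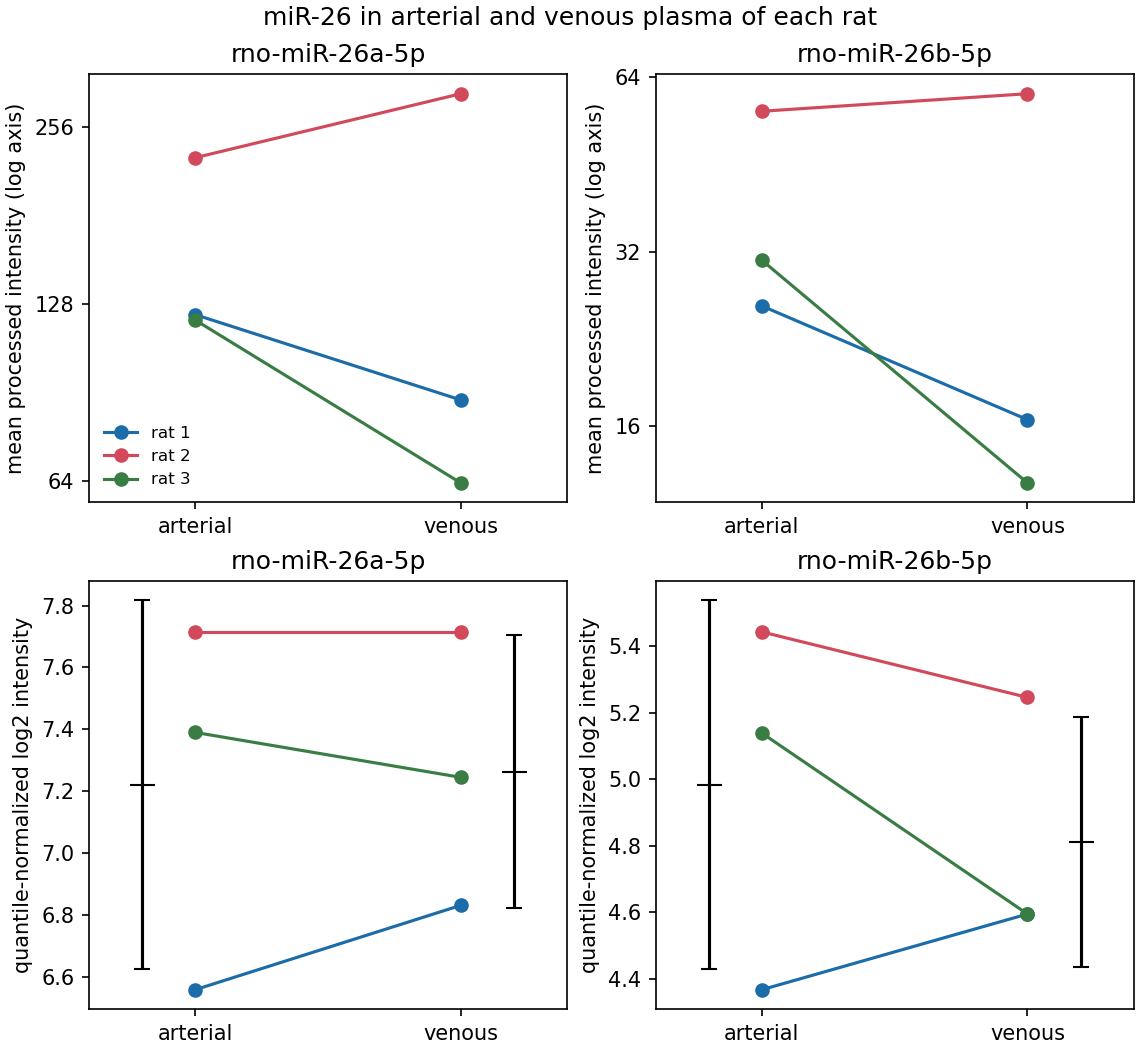
Upper panels show the mean processed intensity on a log axis and lower panels the quantile-normalized log2 intensity of rno-miR-26a-5p and rno-miR-26b-5p, with a line joining the arterial and venous sample of each rat and, in the lower panels, the mean and SD of 3 rats beside the points. Rat 2 lies highest in every panel, and the lines do not share a slope, with normalized arterial minus venous differences from -0.27 to 0.15 and from -0.23 to 0.54.

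Neither member passed the unadjusted p-value cutoff of 0.025 that the study's methods set. Of the 758 microRNAs 0.792% passed it in limma and 0.528% in the methods' paired test on the same values. These shares hold for the values normalized here, and the study applied its test to its own normalized values and reported more microRNAs. At an adjusted p of 0.05 limma called 0 of the 758 microRNAs, beside 12 (1.58%) at an unadjusted 0.05. The methods' paired test likewise called 0 after adjustment and 9 (1.19%) at an unadjusted 0.05. That test gave no p where the differences of the 3 rats were identical, as for microRNAs without a difference in any rat. Its shares are of all 758, those without a p included, and its adjustment covered only microRNAs with a p. The exact two-sided permutation test within rats gave p = 1 for rno-miR-26a-5p and p = 0.75 for rno-miR-26b-5p, and with 3 pairs this test cannot go below 0.25. In the fit of the 126 microRNAs detected on every array, where limma estimates the spread from measured microRNAs only, the 95% interval of the difference ran from -0.51 to 0.42 for rno-miR-26a-5p, or ratios of 0.703 to 1.34. For rno-miR-26b-5p it ran from -0.38 to 0.72, or ratios of 0.769 to 1.65. In the fit of all 758 microRNAs the intervals were -0.50 to 0.42 and -0.67 to 1.01. Both intervals include 0, but they also include differences of the sizes at their ends, so the p-values do not show that arterial and venous levels were equal. The adjusted p-values in this fit were 0.974 and 0.872 from limma, which called 2.38% of the 126 at the cutoff of 0.025, 5.56% at an unadjusted 0.05 and 0 at an adjusted 0.05.

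Over the 126 detected microRNAs the median difference was -0.004, with quartiles at -0.22 and 0.14. Of the other microRNAs, 57 had a lower and 68 a higher difference than rno-miR-26a-5p, which thus lay near the middle of the distribution. For rno-miR-26b-5p 101 were lower and 24 higher. Of the 126, 25 (19.8%) differed in the same direction in all 3 rats and 6 (4.76%) had arterial and venous values that did not overlap in the normalized background-subtracted values, and neither member was among them.

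**Figure D2:**
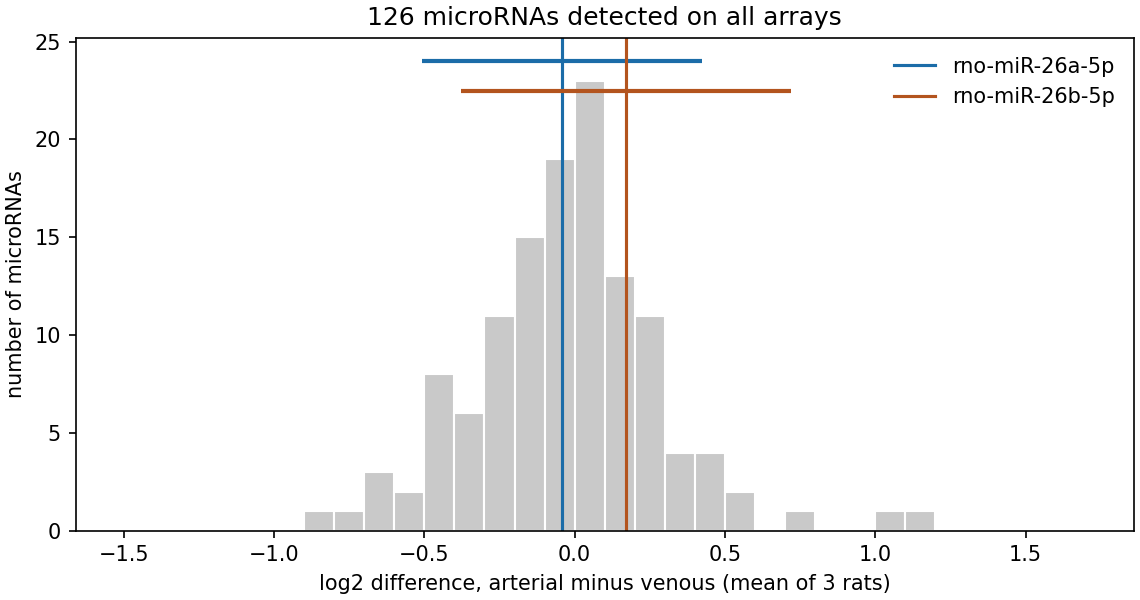
Histogram of the mean log2 difference, arterial minus venous, of the 126 microRNAs detected on all arrays, with a vertical line at each member and a horizontal bar for its 95% interval in the limma fit of these 126. The line of rno-miR-26a-5p at -0.04 stands near the centre and that of rno-miR-26b-5p at 0.17 to the right of it, and both bars include 0.

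The members differed far more between rats than between plasma types. The mean of the arterial and venous log2 intensity of rno-miR-26a-5p was 6.69 for rat 1, 7.71 for rat 2 and 7.32 for rat 3, a range of 1.02. For rno-miR-26b-5p these means were 4.48, 5.34 and 4.87, a range of 0.86. Of the variation of rno-miR-26a-5p over the 6 arrays, 95.7% lay between rats, 0.245% between plasma types and 4.08% in the remainder. For rno-miR-26b-5p the shares were 79.5%, 4.67% and 15.9%. The medians over the 126 detected microRNAs were 72.7%, 6.35% and 15.0%, with a median range of rat means of 0.71. These shares are descriptions of 3 rats. The order of the rats (1, then 3, then 2) was shared by both members and was found in 27 of the 126 microRNAs. Without normalization rat 2 stayed highest, whereas rat 3 had the lowest venous intensity of both members.

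Slide and plasma type were not confounded. Both arrays of rats 1 and 2 were on 1 slide and those of rat 3 on another, so that every slide held both plasma types. Within the first slide the mean difference was -0.14 for rno-miR-26a-5p and -0.015 for rno-miR-26b-5p, and in rat 3, the only rat on the second slide, it was 0.15 and 0.54. In these quantile-normalized values the direction of rno-miR-26b-5p thus rested on rat 3. In the authors' table and relative to the median of the detected microRNAs its difference was above 0 in each rat. Relative to the median this was only 0.02 in rat 1, where the 2 probes of rno-miR-26b-5p differed in sign (-0.01 and 0.05). Rat 3 and the second slide cannot be told apart.

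The probes allowed the differences to be read more than once in each rat. Before normalization, probe A_26_P00001225 of rno-miR-26a-5p gave log2 arterial over venous ratios of 0.47, -0.44 and 0.88 in rats 1, 2 and 3, and its second probe A_26_P00002571 gave 0.49, -0.31 and 0.95. The spot-based standard errors of these ratios were 0.0175 to 0.0292. They rest on the 5 to 8 spots left per probe and array after removal of marked outliers, and do not cover differences between probes. The 2 probes thus read the same direction in every rat and lay 0.0272 to 0.132 apart.

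For rno-miR-26b-5p, probe A_26_P00001228 gave 0.62, -0.13 and 1.19, and probe A_26_P00001229 gave 0.68, -0.08 and 1.35, with spot-based standard errors of 0.0318 to 0.0812. These probes lay 0.0516 to 0.165 apart. The median ratio of the 126 detected microRNAs was 0.63 for rat 1, -0.29 for rat 2 and 0.84 for rat 3, so that its sign in each rat was that of all 4 probes. Relative to that median, rno-miR-26a-5p differed by -0.15, -0.07 and 0.09 and rno-miR-26b-5p by 0.02, 0.19 and 0.44. In rat 1 the probes of rno-miR-26b-5p lay on either side of the median, at -0.01 (A_26_P00001228) and 0.05 (A_26_P00001229).

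**Figure D3:**
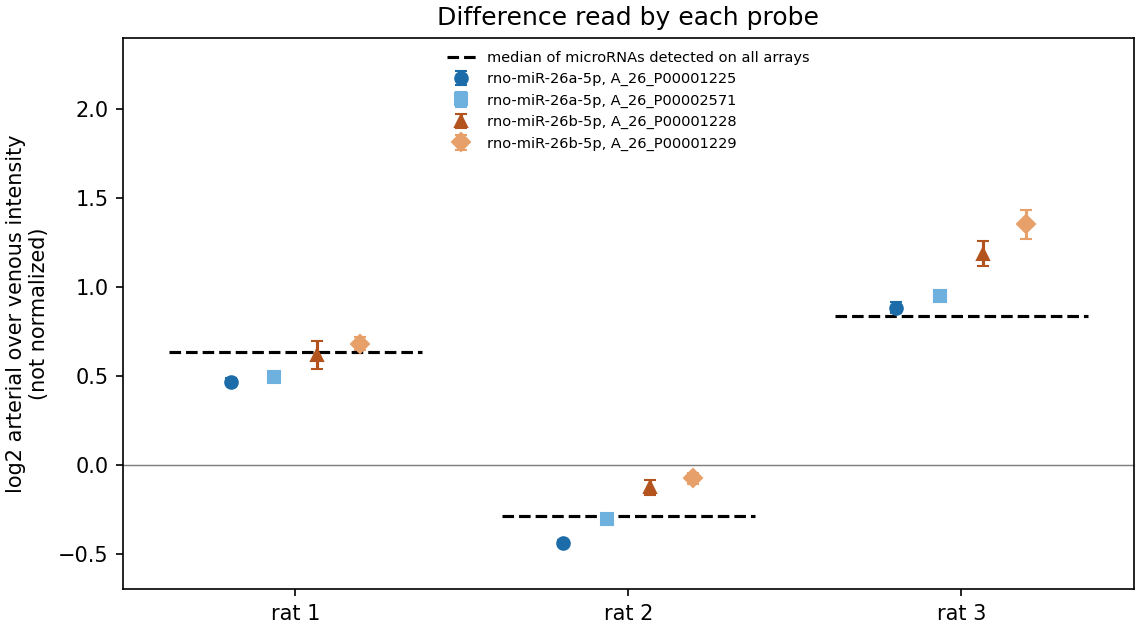
Log2 ratio of arterial to venous intensity, not normalized, for each of the 4 probes in each rat. Bars show the standard error over the spots left after removal of marked outliers. A dashed line marks the median of the 126 microRNAs detected on all arrays. In rats 1 and 3 all probes are above 0, in rat 2 all are below 0, and the probes of rno-miR-26b-5p lie above those of rno-miR-26a-5p in every rat.

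The spots of a probe that remained after removal of marked outliers differed little on an array. Over these remaining spots the coefficient of variation of a probe on 1 array was 1.13 to 5.31% (median 3.11%) for rno-miR-26a-5p. For rno-miR-26b-5p it was 3.71 to 12.1% (median 5.83%). Feature Extraction marked 11 of the 96 spots of each member as outliers, and these were left out. A spot of probe A_26_P00001228 on the arterial array of rat 1 stood apart, with an intensity of 119.1 where the 7 spots used lay between 20.3 and 26.5. With marked spots kept, the difference of rno-miR-26b-5p rose from 0.17 to 0.32 with an adjusted p of 1 from limma, and that of rno-miR-26a-5p was -0.03.

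The 2 members could also be compared with each other within an array, where a factor common to the whole array cancels. The log2 ratio of the rno-miR-26a-5p to the rno-miR-26b-5p intensity is not a ratio of abundances, since different probes were used, but its change from venous to arterial plasma shows whether the members changed alike. Without normalization this ratio was 2.25, 2.02 and 1.96 in arterial samples (rats 1 to 3), against 2.42, 2.29 and 2.31 in venous samples. All arterial values were below all venous values, a separation that 4.85% of 7875 pairs of detected microRNAs showed in one direction or the other. Hence rno-miR-26a-5p was lower relative to rno-miR-26b-5p in arterial plasma by 0.17, 0.26 and 0.35 on the log2 scale in rats 1, 2 and 3, with a mean change of -0.26 and a standard error of 0.0536. After quantile normalization the changes were -0.05, -0.20 and -0.40, with a mean of -0.21 and a standard error of 0.102, and the arterial and venous ratios overlapped.

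The exact two-sided permutation p for this change was 0.25 before and after quantile normalization, the smallest that this test allows with 3 pairs. The methods' paired test, which unlike the exact permutation test has no such limit, gave p = 0.172 for the change after quantile normalization and p = 0.0395 without normalization, neither past the cutoff of 0.025. At this cutoff the methods' test called 3.21% and 3.38% of the pairs of detected microRNAs. Over 14 ways of processing its p ran from 0.0109 to 0.288, beside exact permutation values of 0.25 and 0.5, and it passed the cutoff in 1, normexp background correction of the median spot intensity with an added offset of 50, where the change was -0.07 and 3.21% of the pairs passed. A change in one direction in all 3 rats was frequent among pairs of detected microRNAs, at 28.7% of 7875 pairs without normalization and 27.5% after it, so that nothing is read from the uniform direction alone. The direction was negative for all 4 combinations of a rno-miR-26a-5p probe with a rno-miR-26b-5p probe, with means from -0.35 to -0.18. Binding of rno-miR-26a-5p to the probes of rno-miR-26b-5p, whose sequences differ at few positions, was not tested.

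**Figure D4:**
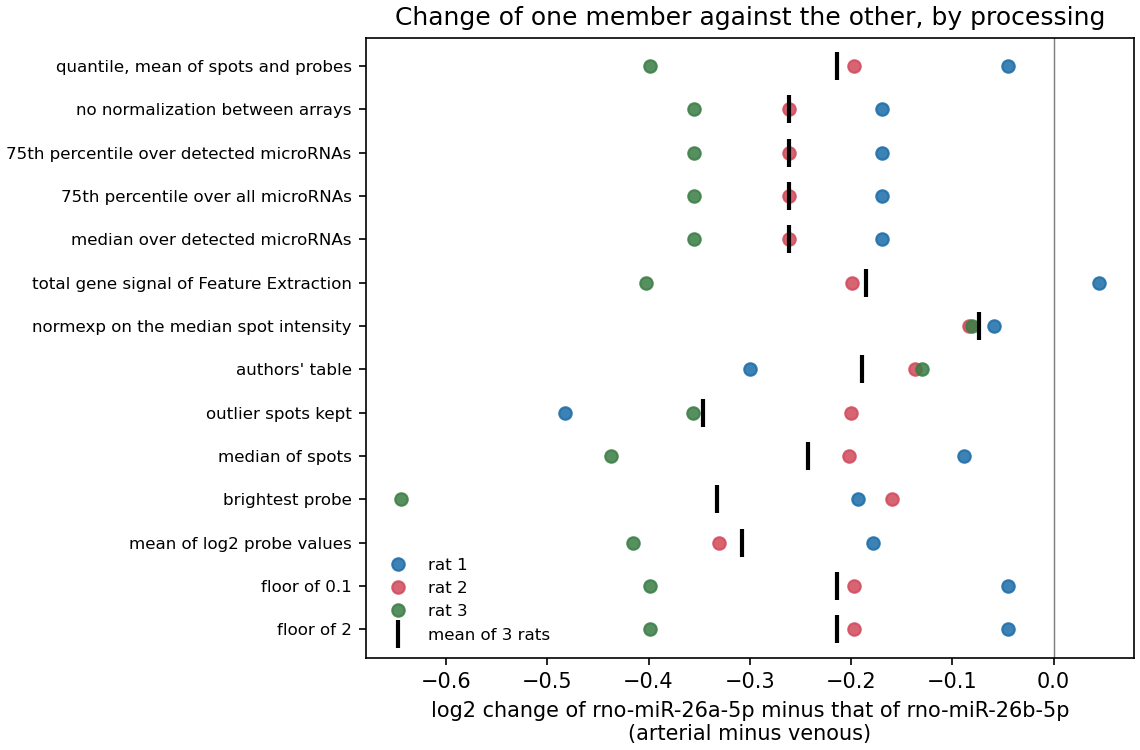
Change of rno-miR-26a-5p minus change of rno-miR-26b-5p (arterial minus venous, log2) under 14 ways of processing, with a point for each rat and a bar for the mean of 3 rats. All means lie below 0, from -0.35 to -0.07, and in 13 of the 14 all 3 rats do, with rat 1 at 0.04 in the total gene signal of Feature Extraction as the exception. Settings that only multiply an array by a factor, and the other floors, share their values by construction.

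Profiles over the 6 arrays were compared by Pearson correlation of the normalized log2 intensities with the other 125 microRNAs detected on every array. The arrays come in pairs from 3 rats, so these correlations are descriptions without p-values. The profile most like that of rno-miR-26a-5p was that of rno-miR-23a-3p (r = 0.996), followed by rno-miR-30c-5p (r = 0.955) and rno-miR-23b-3p (r = 0.938), against a median of 0.13 over the 125. For rno-miR-26b-5p the closest were rno-miR-29b-3p (r = 0.988), rno-miR-23b-3p (r = 0.983) and rno-miR-30c-5p (r = 0.980), against a median of 0.088.

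The correlation of the 2 miR-26 members with each other was 0.926. This placed rno-miR-26b-5p ninth (rank 9) for rno-miR-26a-5p, and rno-miR-26a-5p at rank 11 for rno-miR-26b-5p. Like the members, these 4 microRNAs were lowest in the arterial plasma of rat 1 and highest in the arterial plasma of rat 2, which for rno-miR-26a-5p and rno-miR-23a-3p equalled the venous one. Their arterial minus venous log2 differences were -0.05 for rno-miR-23a-3p, 0.02 for rno-miR-30c-5p, 0.15 for rno-miR-23b-3p and 0.28 for rno-miR-29b-3p, each with an adjusted p of 1 from limma.

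**Figure D5:**
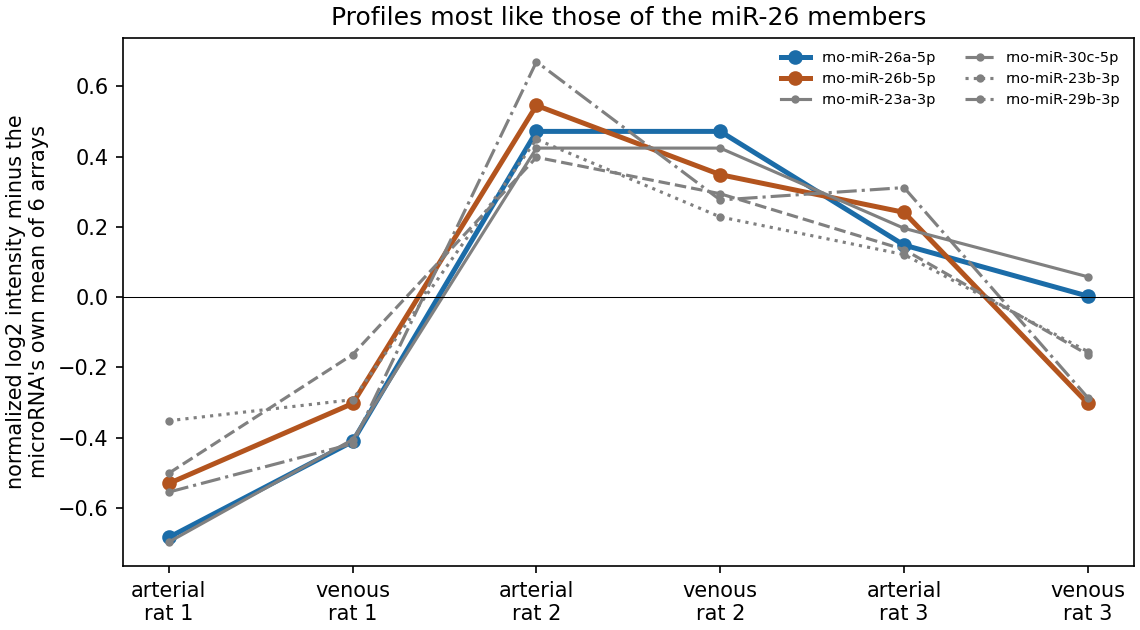
Normalized log2 intensity of the miR-26 members (coloured) and of the 4 microRNAs with the most similar profiles (grey) on the 6 arrays, each after subtraction of its own mean. All rise from rat 1 to the arterial sample of rat 2, and the venous sample of rat 3 separates rno-miR-26b-5p, at 4.59, from its arterial value of 5.14 more than it does rno-miR-26a-5p, at 7.24 and 7.39.

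Arterial and venous blood differ in oxygen, and miR-26 has been counted among microRNAs that respond to low oxygen in cultured cells. Of 10 other microRNAs of that kind (miR-210, miR-23a/b, miR-24, miR-27a/b, miR-103, miR-107 and miR-181a/b), 7 were detected on all arrays. Among these 7 the arterial minus venous log2 difference was above 0 for 3 and below 0 for 4, its median was -0.002 beside -0.004 over the 126 detected microRNAs, and it ranged from -0.15 to 0.15. None of the 7 passed the cutoff in limma, which 0.792% of the 758 microRNAs passed. In the fit of the 126 detected microRNAs 2.38% passed it, so that a count of 0 among 7 does not set them apart. The log2 difference of the intensity summed over all 10 was -0.28 in rat 1, 0.03 in rat 2 and 0.17 in rat 3. rno-miR-210-3p, the microRNA most closely tied to hypoxia, was detected on 1 of the 6 arrays.

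MicroRNAs of blood cells were present in the same plasma. Of the 6 microRNAs in the erythrocyte list, 5 were detected on all arrays, among them rno-miR-451-5p and rno-miR-144-3p, and rno-miR-144-5p on none. The normalized intensity summed over the whole list was 2206 to 2561 in arterial and 1998 to 2585 in venous samples, with log2 differences of -0.10, -0.23 and 0.36 in rats 1, 2 and 3. Its detected members did not share a direction, with mean differences above 0 for 2 and below 0 for 3, from -0.57 for rno-miR-486 to 0.26 for rno-miR-451-5p (median -0.15), and none passed the cutoff. The 6 microRNAs of the platelet and leukocyte list, rno-miR-223-3p among them, were all detected on every array. Their sum was 595.5 to 1097 in arterial and 776.1 to 1084 in venous samples, with differences of -0.38, -0.19 and 0.02. Of these 6, rno-miR-342-3p passed the cutoff in limma over the 758 microRNAs, with a log2 difference of -0.41 and an adjusted p of 1. That cutoff was passed by 0.792% of the 758 and, in the fit of the 126 detected microRNAs, by 2.38%. The 3 that passed in the fit of the 126 were all higher in arterial plasma, so rno-miR-342-3p was not among them. In the platelet and leukocyte list rno-miR-150-5p had a difference of -0.40 and rno-miR-223-3p one of 0.03, neither past the cutoff. Mean differences in this list were above 0 for 2 and below 0 for 4, from -0.41 to 0.06 (median -0.09). In these normalized values both lists and both miR-26 members were lower in arterial plasma of rat 1 and higher in that of rat 3, while in rat 2 both lists were lower and the members differed by 0 and 0.20. For rno-miR-26b-5p in rat 1 this sign was opposite in the authors' table and relative to the median of the detected microRNAs (0.02). Relative to that median its 2 probes differed in sign. The liver list had 2 of 3 and the muscle list 1 of 4 microRNAs detected on all arrays. The liver sum, like the others over the whole list, was 74.3 to 585.1 in arterial and 94.2 to 267.5 in venous samples, with differences of -0.34, 1.13 and 0.28, and the muscle sum 19.1 to 45.2 and 19.2 to 47.1, with differences of 0.19, -0.13 and -0.06. The part of these lists in the miR-26 values was not tested.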

How the data were processed

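Plasma microRNAs were measured with 1 Agilent Cy3 array per sample, in 3 arterial and 3 venous samples. The authors deposited spot intensities from Agilent Feature Extraction, with local background subtracted and no normalization between arrays, and a table of linear intensities that they quantile normalized in GeneSpring. The submitters' processing notes give Feature Extraction 11.0.1.1 and the array files 10.7.3.1. Control spots were removed, as were spots marked as outliers (8.72 to 10.4% of an array), spots and then probes were averaged, the 758 microRNAs were quantile normalized, a floor of 1 was set and values were log2 transformed. The difference between plasma types was fitted by limma 3.58.1 in R 4.3.3, two-sided and with the rat as a block, with Benjamini-Hochberg adjustment over all 758. Because many microRNAs lie at the floor, the prior of limma had 0.198 degrees of freedom, against 3.22 over the 126 detected microRNAs. Permutation tests used Python 3.11.15. Alternatives changed the normalization, the intensity, the summary of spots and probes, the floor, the filter, the statistical test, the blocking factor and which rats entered.

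The pairing comes from the rat number in the labels, and the deviations of the 2 samples of a rat from their group means correlated at 0.799, 0.686 and 0.635 over 126 microRNAs. Precision is limited by the number of arrays. The members, lists, settings (also those listed at the outset) and named microRNAs (the members, the other arms, the 3 closest profiles of each member and the list members) were chosen with earlier results of these data known. Sequences come from RefSeq (GRCr8), while the array files name another build. Array probe sequences and the study's quantitative PCR were not used here.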

Additional observations from a re-analysis of the deposited data

How the results depend on the processing

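For each member 27 alternatives were run, 24 listed at the outset and 3 chosen after seeing the data. None of the 26 with a test passed the cutoff of 0.025, where the first slide alone and the data without rat 3 are the same samples, and limma's adjusted p-values ran from 0.811 to 1 for rno-miR-26a-5p and from 0.588 to 1 for rno-miR-26b-5p. The difference of rno-miR-26a-5p (-0.04) kept its sign in 24, of which 8 alter only the test, the filter or a floor below it and so hold the same value, and changed it without normalization between arrays (0.35, where the median of the 126 detected microRNAs moved to 0.40), in rat 3 alone (0.15) and without rat 1 (0.073). That of rno-miR-26b-5p (0.17) kept its sign in 25, the same 8 included, ran from 0.049 with normexp to 0.61 without normalization when all rats were used, and changed it without rat 3, which equals the first slide alone (-0.015). With 1 rat left out in turn the differences ran from -0.14 to 0.073 and from -0.015 to 0.37. With no block for the pairing by rat they stayed at -0.04 and 0.17 (standard errors 0.418 and 0.378), and no call changed. The change of rno-miR-26a-5p against rno-miR-26b-5p (-0.21) kept its sign in all 24 alternatives, 4 of them equal to it by construction. It ran from -0.40 to -0.07, and from -0.30 to -0.12 with 1 rat left out. All 3 rats were below 0 in the quantile-normalized values, so the sign without 1 rat or within a slide was fixed in advance. Settings that only multiply an array by a factor also share their value by construction. No filter, slide block or intensity trend applies to this change. The count of microRNAs past the cutoff in limma was 6 of 758 (0.792%), and ranged from 3 to 13 with all rats. The 3 are of the 126 microRNAs detected on every array (2.38%, a larger share), and the 13 are of 758. Without rats 1, 2 and 3 the count was 33, 19 and 17 of 758. The cause of these shifts was not tested. At an adjusted p of 0.05 limma called 1 of the 201 microRNAs detected on at least 1 array. It was neither member, whose adjusted p-values from limma there were 0.992 and 0.950. For normexp the median spot intensity was used in place of the mean, with an offset of 50, which is added to every intensity before the log2 and so draws differences of dim probes toward 0. Of the spots, 96 of 96 were well above background for rno-miR-26a-5p and 95 of 96 for rno-miR-26b-5p.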
